A study of Mus musculus with 6 samples.

Results

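The enzymes that build and break down glycogen were examined in the brown adipose tissue that lies between the shoulder blades (interscapular) and produces heat, in mice with and without a working Ucp1 gene. The 9 genes were taken by symbol, out of 29072 genes in the deposited table, with earlier results of these data known. They are the glycogen phosphorylases Pygm, Pygl and Pygb, the phosphorylase kinase subunits Phka1 and Phkg1, the glycogen synthases Gys1 and Gys2, the branching enzyme Gbe1 and the phosphatase targeting subunit Ppp1r3c. All 9 had a row in the table, and all 9 passed the filter on low values.

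The study holds 6 libraries of total RNA, 3 from knockout mice, labelled UCP1(-/-), and 3 from wildtype mice, all of the C57BL/6J strain. The labels name no other allele, transgene or agent. Age, sex, housing temperature and the construction of the knockout allele are not stated in the sources used. The labels do not tie the replicates to different animals. The tests therefore rest on the spread from sample to sample, and that spread may be only technical.

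Glycogen is a branched polymer of glucose that many cells keep as a short-term fuel. Glycogen synthase lengthens the chains, the branching enzyme adds branch points, and glycogen phosphorylase releases glucose 1-phosphate from the chain ends. Phosphorylase kinase switches phosphorylase on in response to calcium and to cyclic AMP signalling, and protein phosphatase 1, brought to glycogen by targeting subunits such as Ppp1r3c, reverses this and activates synthase. Vertebrates carry tissue isozymes of several of these proteins: Pygm, Phka1 and Phkg1 are the forms of skeletal muscle, Pygl and Gys2 those of liver, Pygb that of brain, and Gys1 the synthase of muscle and most other tissues. Brown adipocytes make and store glycogen as well.

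The 3 members that were higher in knockout brown fat are shown by the 250 bases before their annotated starts. This lets the reader see the promoters of genes that changed in the same direction. The sequences are RefSeq's, of build GRCm38.p6, and 8 of the 9 members matched; the build the authors used is not given. Capitals mark CAGCTG, a form of the E-box that myogenic factors bind. They also mark CTA followed by any 4 bases and TAG, a looser pattern than the usual sites of the MEF2 factors. Both patterns read the same on either strand, and the 2 did not overlap in these windows. The window of Pygm is chr19:6384158-6384407 on the plus strand, that of Phka1 is chrX:102644247-102644496 on the minus strand, and that of Phkg1 is chr5:129879089-129879338 on the minus strand, each written 5′ to 3′ along its gene.
Pygm: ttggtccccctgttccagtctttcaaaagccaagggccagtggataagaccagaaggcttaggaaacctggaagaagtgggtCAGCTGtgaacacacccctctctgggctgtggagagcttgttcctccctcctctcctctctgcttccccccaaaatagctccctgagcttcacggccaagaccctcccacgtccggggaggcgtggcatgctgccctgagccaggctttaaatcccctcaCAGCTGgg
Phka1: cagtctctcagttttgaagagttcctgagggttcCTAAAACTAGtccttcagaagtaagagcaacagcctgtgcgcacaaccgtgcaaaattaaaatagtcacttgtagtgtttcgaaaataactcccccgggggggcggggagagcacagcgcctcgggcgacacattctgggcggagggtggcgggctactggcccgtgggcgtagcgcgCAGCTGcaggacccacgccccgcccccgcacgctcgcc
Phkg1: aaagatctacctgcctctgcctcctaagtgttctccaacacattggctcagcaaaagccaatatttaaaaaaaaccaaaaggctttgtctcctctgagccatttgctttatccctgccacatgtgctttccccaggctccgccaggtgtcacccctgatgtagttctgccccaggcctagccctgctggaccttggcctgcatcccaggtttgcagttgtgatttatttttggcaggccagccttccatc

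Pygm held 2 matches to CAGCTG, which began 168 and 8 bases before its start. Phka1 held 1 match to CAGCTG, 38 bases before its start, and 1 to the CTA and TAG pattern, 216 bases before it. The 4 bases between CTA and TAG were AAAC, so this match is not taken as a MEF2 site. Phkg1 held neither pattern in this window. Single matches to CAGCTG also lay before Gys1 and Ppp1r3c, neither of which passed the test described below, so 4 of the 8 members with a sequence held it. Among 32851 RefSeq promoter windows of the same length, 13.0% held CAGCTG and 3.20% held the CTA and TAG pattern. A match is a match of letters and not a measured binding site.

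Before the members, the libraries were checked against their labels. Ucp1 stood at 375, 389 and 372 RPKM in the knockout libraries and at 3096, 1714 and 3151 RPKM in the wildtype libraries, where RPKM is a read number scaled by transcript length and by the depth of the library. Markers of brown adipocytes were present in both groups, with Cidea at 1264 to 1427 RPKM in all 6 libraries. Of the 12 genes of that list, 1 passed the test below as higher in knockout, Elovl3. Another 2 passed as lower, Ucp1 and Prdm16. Markers of skeletal muscle fibres differed with genotype: the sum of the 20 genes of that list was 1827 to 2066 RPKM in knockout and 60.3 to 301 RPKM in wildtype, with the lowest sum in wildtype replicate 3. None of the 20 was at 0 in any library. The spacing of low values implied 15800000 to 18000000 reads per library. With limma, 894 of 11541 tested genes passed an adjusted p of 0.05, that is 7.75%, with 7.00% higher and 0.745% lower in knockout. Scaling by the median of ratios gave 470 higher and 178 lower genes, or 4.08% and 1.55% of those tested, so the share of higher genes among those called went from 90.4% to 72.5%. That scaling moved the median log2 change of all tested genes from 0.08 to -0.02. Without knockout replicate 1 or 2, 477 and 457 genes passed.

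Against this background, 4 of the 9 members passed, 3 higher and 1 lower in knockout brown fat. Pygm, Phkg1 and Phka1, the muscle forms of phosphorylase and of its kinase, rose, and Gbe1, the branching enzyme, fell. Pygl, Pygb, Gys1, Gys2 and Ppp1r3c did not pass. The median log2 change over the 9 members was -0.17, and -0.28 after median-of-ratios scaling, which changed no call among them. Knockout and wildtype values did not overlap for 7 members, 3 higher and 4 lower in knockout. Over all tested genes 29.4% did not overlap, 24.3% higher and 5.14% lower. The members were chosen with earlier results of these data known, so no excess is read from these counts.

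**Figure D1:**
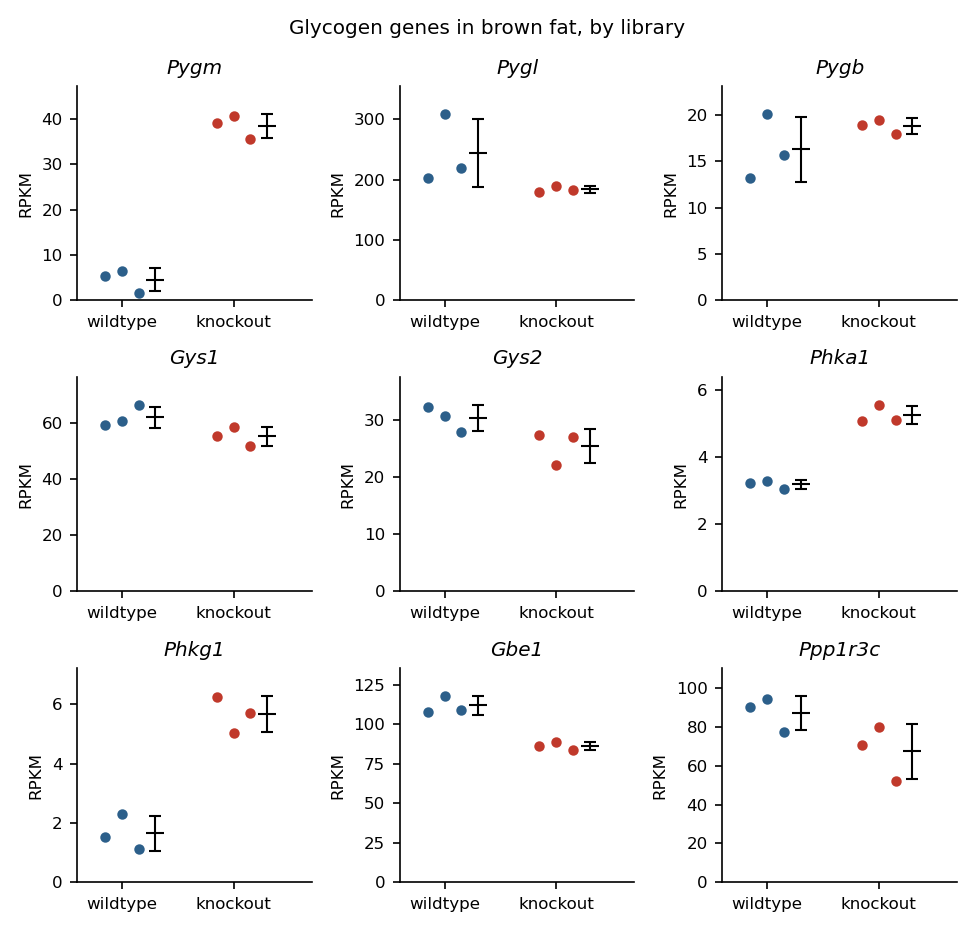
RPKM (linear axes from 0) of each glycogen gene in the 3 wildtype (blue) and 3 knockout (red) libraries of brown fat; points are libraries, replicates 1 to 3 from left to right, and bars are the mean ± SD. Pygm, Phkg1 and Phka1 lie higher in every knockout library, and Gbe1 lies lower in every knockout library.

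Among the phosphorylases, Pygm rose and the other two did not pass. Pygm stood at 39.1, 40.8 and 35.6 RPKM in knockout replicates 1, 2 and 3 and at 5.40, 6.52 and 1.64 RPKM in wildtype replicates 1, 2 and 3. Every knockout library lay far above every wildtype library, and wildtype replicate 3 was the lowest of all. That library also held the least muscle marker RNA. In RNA of whole tissue, more cells of a type and more RNA per cell cannot be told apart. The means were 38.5 ± 2.64 and 4.52 ± 2.55 RPKM (SD, n = 3 each), an 8.52-fold higher level in knockout. The log2 change on the scale of log2(RPKM + 1), which is used for all log2 changes here and understates changes of low values, was 2.97 (SE 0.33, limma adjusted p = 0.00132). The table holds 5 transcript rows of Pygm, which share reads, and knockout was above all wildtype values in each, by 7.85- to 8.52-fold.

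Pygl, the liver isozyme, was the most abundant of the 9 members per length in every library. It stood at 179, 190 and 183 RPKM in knockout and at 203, 309 and 219 RPKM in wildtype. The groups did not overlap, but wildtype replicate 2 lay well above wildtype replicates 1 and 3. For Pygl the log2 change was -0.38 (95% interval -0.71 to -0.05, limma adjusted p = 0.156). All 6 liver markers, among them Alb, were under 1 RPKM in every library. Pygb, the brain isozyme, stood at 18.9, 19.5 and 17.9 RPKM in knockout and at 13.2, 20.1 and 15.7 RPKM in wildtype, and the groups overlapped. Its log2 change was 0.21 (95% interval -0.10 to 0.51, limma adjusted p = 0.388).

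Phosphorylase kinase is built of alpha, beta, gamma and calmodulin subunits, and both members that encode a muscle subunit rose. Phkg1, the catalytic gamma subunit of muscle, stood at 6.24, 5.02 and 5.71 RPKM in knockout and at 1.53, 2.30 and 1.12 RPKM in wildtype. The lowest knockout library was above the highest wildtype library. Phkg1 was 3.43-fold higher in knockout (log2 change 1.35, SE 0.16, limma adjusted p = 0.0015). Phka1, the regulatory alpha subunit of muscle, stood at 5.07, 5.55 and 5.11 RPKM in knockout and at 3.22, 3.30 and 3.05 RPKM in wildtype. Its groups did not overlap either, and its spread was small in both. Phka1 was 1.64-fold higher in knockout (log2 change 0.58, SE 0.08, limma adjusted p = 0.00275). Among transcript rows with a mean of at least 1 RPKM, all 2 of Phkg1 and all 8 of Phka1 were higher in every knockout library, by 3.43- to 3.83-fold and 1.57- to 1.64-fold. The remaining subunit genes did not pass: Phka2, the liver alpha subunit, had a log2 change of 0.14, Phkb, the beta subunit, of 0.11, and Phkg2, the other gamma subunit, of 0.11.

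Few reads lay behind Phkg1. Taking the length of the paired GENCODE transcript, its values correspond to about 43 to 244 reads per library. Pygm rested on about 77 to 1850 reads, Phka1 on about 295 to 546, and Pygl on 8080 to 14100, the most of the 9. Phkg1 overlaps Sumf2 and Gys1 overlaps Ruvbl2 in the annotation, and since the use of strand is not stated, reads in those overlaps cannot be assigned.

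**Figure D2:**
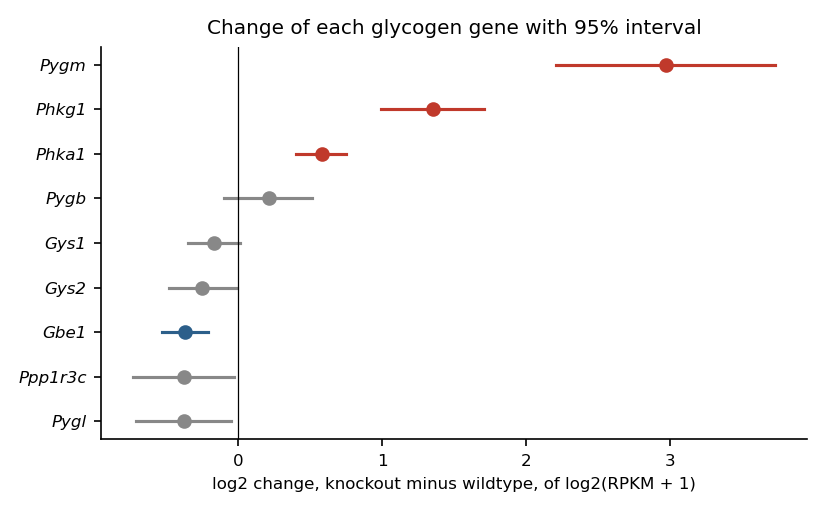
Log2 change of each of the 9 glycogen genes, knockout minus wildtype, on log2(RPKM + 1), with the 95% interval from limma; red passed an adjusted p of 0.05 as higher, blue as lower, grey did not pass. Pygm, Phkg1 and Phka1 are the 3 genes in red, from 2.97 to 0.58, and Gbe1 at -0.37 is the 1 gene in blue.

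On the side of synthesis, Gbe1 fell and neither synthase passed. Gbe1, which makes the branch points of glycogen, stood at 86.4, 88.7 and 83.5 RPKM in knockout and at 108, 118 and 109 RPKM in wildtype. All knockout libraries were below all wildtype libraries, in each of the 12 transcript rows of the gene. Knockout averaged 86.2 ± 2.62 RPKM and wildtype 112 ± 5.86 RPKM (SD, n = 3 per group), with a log2 change of -0.37 (SE 0.07, limma adjusted p = 0.0177). The call on Gbe1 was lost when any 1 knockout library was left out, with an adjusted p of 0.0737, 0.0576 and 0.062 without replicates 1, 2 and 3. General adipocyte markers summed to 12452 to 14004 RPKM in knockout and 11444 to 13026 RPKM in wildtype. Most of this was Fabp4, which averaged 8728 RPKM in knockout and 8384 RPKM in wildtype. Of these 8 markers 0 passed, beside 7.75% of all tested genes, so that count is near the background. Whether adipocyte RNA bears on the change of Gbe1 was not tested.

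Gys1 stood at 55.3, 58.4 and 51.8 RPKM in knockout and at 59.2, 60.6 and 66.4 RPKM in wildtype. The groups did not overlap and knockout was lower, by less than the test could call (log2 change -0.17, 95% interval -0.35 to 0.01, limma adjusted p = 0.245). Gys2 stood at 27.3, 22.0 and 27.0 RPKM in knockout and at 32.3, 30.7 and 27.8 RPKM in wildtype. It too was lower in knockout without overlap and without passing (log2 change -0.25, 95% interval -0.48 to -0.01, limma adjusted p = 0.187). Summed over both synthases, knockout libraries held 82.6, 80.4 and 78.8 RPKM and wildtype libraries 91.5, 91.3 and 94.2 RPKM. With 3 libraries against 3 the exact two-sided permutation test cannot go below 0.1, and this difference reached that smallest value. After Benjamini-Hochberg adjustment over 6 measures its exact permutation p was 0.150. Knockout minus wildtype was -11.7 RPKM, -18.3 RPKM after median-of-ratios scaling and -72.1 RPKM with all transcript rows summed, which counts shared reads more than once.

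Ppp1r3c, the targeting subunit also called PTG, stood at 70.4, 80.0 and 52.0 RPKM in knockout and at 90.0, 94.0 and 77.2 RPKM in wildtype. Knockout replicate 2 lay above wildtype replicate 3, so the groups overlapped. The log2 change was -0.38 (95% interval -0.73 to -0.03, limma adjusted p = 0.175), about the size of that of Gbe1 but with a wider spread between libraries.

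The order of the members by level was nearly the same in both groups. From the highest wildtype mean it ran Pygl, Gbe1, Ppp1r3c, Gys1, Gys2, Pygb, Pygm, Phka1 and Phkg1. In wildtype the ranges of neighbouring genes overlapped only for Pygm and Phka1. In knockout, Pygm stood above Gys2 and Pygb, and Phkg1 stood above Phka1. There the ranges overlapped for Ppp1r3c and Gys1 and for Phkg1 and Phka1.

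Because RPKM is per length, the share of each isozyme can be read within a library. Pygm made up 16.5%, 16.3% and 15.1% of phosphorylase RNA in the knockout libraries and 2.44%, 1.95% and 0.695% in the wildtype libraries. Phkg1 made up 43.1%, 38.5% and 36.3% of the 2 gamma subunit genes in knockout and 13.9%, 22.3% and 14.2% in wildtype. The mean difference for Phkg1 was 22.5 percentage points, and 9.94 points when all transcript rows of a gene were summed. Phka1 made up 34.9%, 37.5% and 37.4% of the 2 alpha subunit genes in knockout and 32.3%, 25.4% and 26.8% in wildtype. These 3 shares were higher in every knockout library, at the smallest exact permutation p the design allows (0.1, two-sided; 0.150 after Benjamini-Hochberg adjustment over 6 measures). The share of Gys1 among synthases was 68.4 ± 3.71% in knockout and 67.2 ± 2.97% in wildtype (SD, n = 3 each; exact permutation p = 0.600), a difference within the spread of either group. Without knockout replicate 2 it turned to -0.860 percentage points. Summed phosphorylase RNA averaged 241 ± 7.83 RPKM in knockout libraries and 264 ± 61.7 RPKM in wildtype libraries (exact permutation p = 0.900). The difference was -23.3 RPKM, -126 RPKM with all rows summed, and 12.1 RPKM without wildtype replicate 2.

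**Figure D3:**
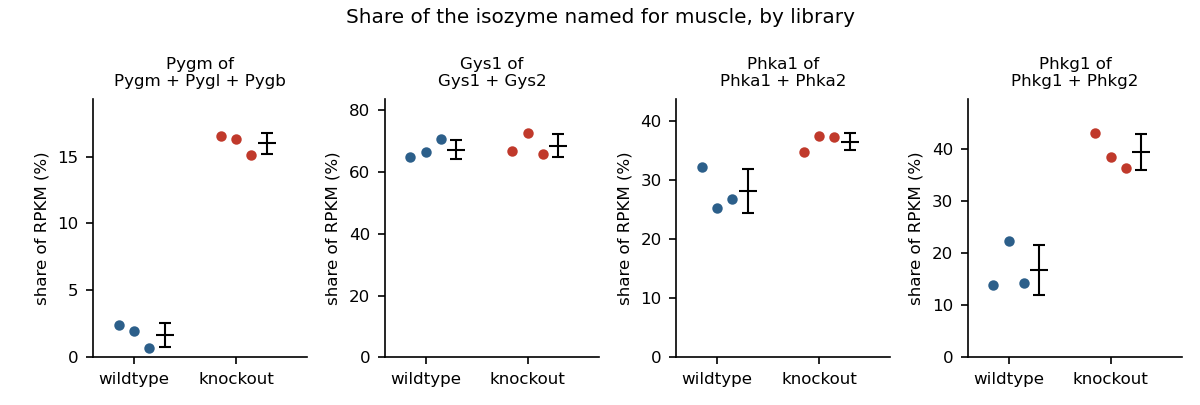
Share of RPKM (percent, axes from 0) of the isozyme named for muscle within each gene family, by library; points are the 3 wildtype (blue) and 3 knockout (red) libraries and bars the mean ± SD. Pygm, Phka1 and Phkg1 take larger shares in every knockout library, and the shares of Gys1 overlap.

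The differences between isozymes were also tested in 5 pairs, on the same values as the calls above. The log2 change of Pygm exceeded that of Pygl by 3.35 and that of Pygb by 2.76. The log2 change of Phkg1 exceeded that of Phkg2 by 1.24, and that of Phka1 exceeded that of Phka2 by 0.44. For these 4 pairs the exact two-sided permutation p was 0.1, again the smallest possible, and 0.125 after adjustment over the 5 pairs. Gys1 and Gys2 differed in log2 change by 0.08 (exact permutation p = 0.600).

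The 3 members that rose and the muscle markers were all higher in knockout, to unequal degrees. For each 100 RPKM of the summed muscle list, Pygm stood at 1.89, 1.99 and 1.95 RPKM in knockout and at 2.05, 2.17 and 2.73 RPKM in wildtype. Measured this way, knockout and wildtype libraries lay close together, with knockout slightly lower. Phkg1 stood at 0.302, 0.245 and 0.313 RPKM per 100 RPKM of muscle markers in knockout and at 0.581, 0.763 and 1.86 RPKM in wildtype. Phka1 stood at 0.245, 0.271 and 0.280 RPKM in knockout and at 1.22, 1.10 and 5.05 RPKM in wildtype. Both were lower relative to muscle markers in every knockout library, since the muscle markers differed between the groups by more than these genes did. How much muscle RNA contributed to the change of each gene was not tested. Other marker lists differed less: macrophage markers summed to 49.6 to 73.1 RPKM in knockout and 34.5 to 53.2 RPKM in wildtype, and endothelial markers to 131 to 150 and 130 to 144 RPKM. Of 8 macrophage markers tested, Mpeg1 passed as higher and 7 did not pass, beside 7.00% higher over all tested genes. Smooth muscle markers summed to 73.6 to 88.2 RPKM in knockout and 48.1 to 72.7 RPKM in wildtype, without overlap. In that list Des passed as higher (1.97-fold, limma adjusted p = 0.00217), and the 4 others did not pass and had negative log2 changes.

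**Figure D4:**
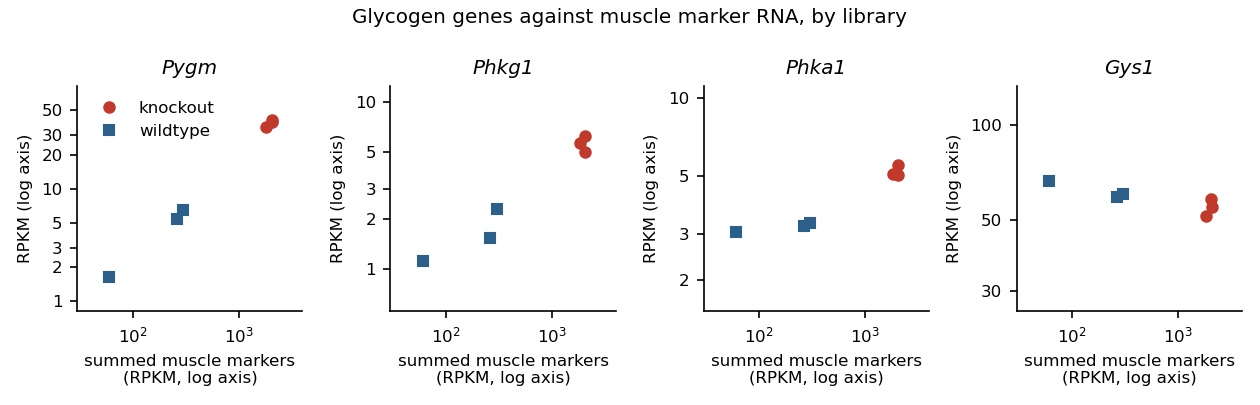
RPKM of Pygm, Phkg1, Phka1 and Gys1 (log axes) against the summed RPKM of 20 skeletal muscle markers (log axis), 1 point per library, squares wildtype and circles knockout. Pygm spans the widest range along with the muscle sum, from 1.64 to 40.8 RPKM, Phkg1 and Phka1 span less, and Gys1 is lower in the knockout libraries, which hold the most muscle marker RNA.

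The genes most like Pygm over the 6 libraries were Actn3, Myoz1 and Casq1, an actinin, a Z-disc protein and the calcium store protein of fast fibres. Their Pearson r on log2(RPKM + 1) was 0.9998, 0.9996 and 0.9996. Genes compared averaged at least 5 RPKM in knockout or in wildtype. Actn3, Myoz1 and Casq1 reached that level only in knockout. They therefore had to differ between the groups, and their r is given as a description. In all, 46 of 6517 genes compared had an r over 0.99 with Pygm, and all of these values rest on 6 libraries that also differ in genotype. For Gys2 the closest genes were Zfp629, Srsf7 and Kitl, with r of 0.9830, 0.9759 and 0.9624, and none exceeded 0.99.

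A wider list of 47 genes covers the rest of the pathway: glycogenin, debranching and lysosomal enzymes, other subunits of phosphatase 1, subunits of protein kinase A and AMP-activated kinase, and glucose entry. Of these, 42 were tested, and 4 passed as higher, 0 as lower and 38 did not pass. Over all tested genes 7.75% passed and 7.00% were higher, so the count of 4 in 42 is near the background. The median log2 change of the list was 0.08, equal to that of all tested genes. Ppp1r3a, the phosphatase targeting subunit of skeletal muscle, stood at 1.52, 1.60 and 1.46 RPKM in knockout and at 0.146, 0.199 and 0.0346 RPKM in wildtype. It is 1 of the 4, but it entered the test through its knockout level alone, so it had to differ between the groups, and its values are given as a description. Hk1, a hexokinase that phosphorylates glucose on entry, stood at 21.8, 21.7 and 20.8 RPKM in knockout and at 7.67, 5.35 and 10.9 RPKM in wildtype (log2 change 1.37, limma adjusted p = 0.00363). Hk2, a more abundant hexokinase of the list, averaged 104 RPKM in knockout and 102 RPKM in wildtype and did not pass (log2 change 0.01, limma adjusted p = 0.99). Among wildtype libraries Hk1 was highest in replicate 3, where muscle markers were lowest, a rank that rests on 1 library. Whether muscle RNA bears on the change of Hk1 was not tested.

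Gyg, the self-glucosylating primer on which glycogen is built, averaged 82.5 ± 8.51 RPKM in knockout libraries and 60.2 ± 7.59 RPKM in wildtype libraries (SD, n = 3 per group), with a log2 change of 0.45 (limma adjusted p = 0.0444). Prkaa2, a catalytic subunit of AMP-activated kinase, was at 7.74 ± 1.09 and 5.43 ± 0.407 RPKM (log2 change 0.44, limma adjusted p = 0.0439). Both lay near the threshold: the call on Gyg was lost in 9 of 16 alternatives and that on Prkaa2 in 10 of 16. With scaling by the median of ratios, 2 genes of the list passed as higher, Hk1 and Ppp1r3a, and 2 as lower, Mlxipl and Ppp1r1a. Over all tested genes 4.08% were higher and 1.55% lower at that setting, so these small counts too are near the background. Without knockout replicate 1, knockout replicate 2 or wildtype replicate 1 the list held 2 called genes in each case. The closest genes beyond the threshold were Prkar2a, a regulatory subunit of protein kinase A (log2 change 0.44, limma adjusted p = 0.0501), Stbd1, which ties glycogen to membranes (0.49, limma adjusted p = 0.0519), and G6pc3, a glucose 6-phosphatase (0.28, limma adjusted p = 0.0733).

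**Figure D5:**
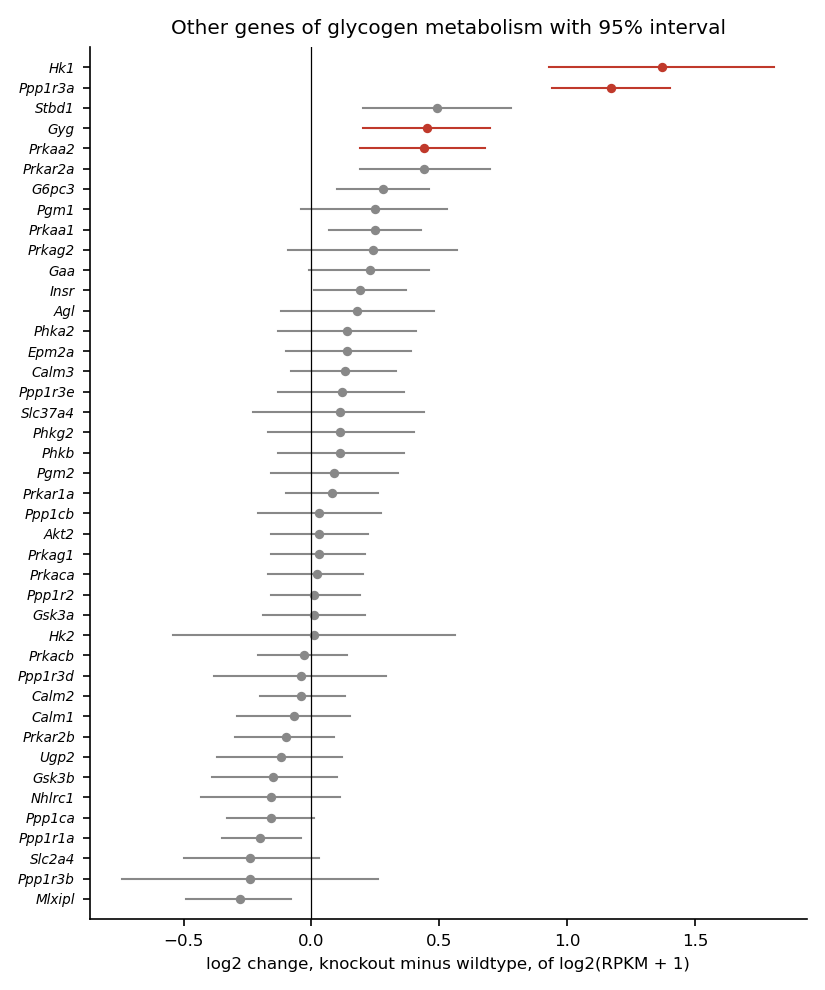
Log2 change of the 42 tested genes of the wider glycogen list, knockout minus wildtype, on log2(RPKM + 1), with the 95% interval from limma; red passed an adjusted p of 0.05 as higher and grey did not pass. Hk1 lies highest at 1.37, Gyg and Prkaa2 lie near genes that did not pass, and Ppp1r3a at 1.17 is shown only because its knockout level passed the filter on low values.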

How the data were processed

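Libraries were made from total RNA with a TruSeq RNA kit, per the labels' protocols. CASAVA and bcl2fastq are named in the submitters' processing notes. Aligner, genome build and annotation are not stated there. The authors' deposited table holds RPKM values in 168326 transcript rows. No header names the unit. It was read as RPKM because 95.8% to 96.1% of low values, times Ensembl transcript length and library depth, were whole reads within 0.1. The depth of each library was fitted to make these same values whole, so the check is not independent.

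Rows without a gene identifier (23170) were left out. For each gene 1 row was kept, RefSeq before Ensembl before others, then the highest mean. Genes that averaged 1 RPKM or more in knockout or in wildtype were tested with limma 3.58.1 in R 4.3.3 (intensity trend, genotype only, two-sided) on log2(RPKM + 1), with Benjamini-Hochberg adjustment over all tested genes. The fit was checked on simulated data. That simulation used 1 setting of spread for all genes and no difference in scaling between the groups, so it does not cover such differences. The members and lists were chosen with earlier results of these data known. All members were named. From the wider list, called genes and the 3 next by p were named, and the 3 genes most like Pygm and Gys2. Mlxipl, Ppp1r1a, Elovl3, Prdm16, Mpeg1, Des and Hk2 were named after their values were seen. The subunit shares, summed levels, muscle ratios and tests of isozyme pairs were also added then. The marker Adgre1 matched no row.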

Additional observations from a re-analysis of the deposited data

How the results depend on the processing

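Pygm, Phkg1 and Phka1 kept their direction and passed in all 15 alternatives run for single genes, and Gbe1 in 12 of 15, with log2 changes of 2.51 to 3.27, 1.20 to 1.77, 0.49 to 0.70 and -0.48 to -0.33. At a threshold of 0.01, 370 genes passed in all, 3 of the 9 members (Gbe1 did not) and 2 of the wider list. Leaving out 1 library at a time gave 457 to 850 genes in all, with 457 without knockout replicate 2 and 477 without knockout replicate 1, and 2 to 4 of the wider list. The difference in the Pygm share went from 14.3 to 12.8 percentage points with summed rows and to 19.1 with the highest row. Summed rows moved the difference in the Phkg1 share from 22.5 to 9.94 points, summed phosphorylases from -23.3 to -126 RPKM and summed synthases from -11.7 to -72.1 RPKM. Median-of-ratios scaling put summed synthases at -18.3 RPKM. Summed rows count shared reads more than once. The difference in the Gys1 share, 1.26 points, was -0.860 to 2.91 with 1 library left out and negative without knockout replicate 2. That in summed phosphorylases was -44.7 to 12.1 and positive without wildtype replicate 2. The causes were not tested. With the replicate number as a block, 778 genes passed in place of 894, and the same 4 members. Deviations of same-numbered libraries correlated at -0.02 to 0.09, and not every library correlated best with its own number, so the numbers are not taken to pair the samples.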
